A study of Mus musculus with 6 samples.

Results

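The matrix metalloproteinases (MMP), the ADAMTS proteases with the ADAMTS-like (ADAMTSL) proteins, and the tissue inhibitors of metalloproteinases (TIMP) were followed in cultured stromal cells of mouse visceral fat. Genes were taken by symbol from the count table, as every Mmp, Adamts, Adamtsl or Timp gene with a number. This gave 51 of the 55011 genes in the table, made up of 23 MMP, 19 ADAMTS, 5 ADAMTSL and 4 TIMP genes. The cells, called mSC in the design text, came from visceral fat (VAT in the labels, eWAT in the design) and were negative for the Il33-EGFP reporter. They received PBS (3 libraries) or 10 nM irisin/HSP90α (3 libraries, called irisin here) for 3 days. Both groups therefore consist of reporter-negative cells, and age, sex and strain of the mice are not stated. The sources used here leave unsaid if PBS wells also received HSP90α, and if each replicate had its own culture or animal. The error behind each p-value may therefore be technical only.

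MMPs are zinc-dependent proteases that are made as inactive precursors and cut collagens, other matrix proteins, growth factors and their receptors. ADAMTS proteases are secreted relatives that carry thrombospondin repeats and cut proteoglycans, procollagens and other matrix proteins, and ADAMTSL proteins share those repeats but have no protease domain. TIMPs are small secreted proteins that block the active site of these enzymes, and in fat the balance of proteases and inhibitors shapes the matrix around growing adipocytes.

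Total counts ran from 5271309 to 6745799 per library, and a level of 1 CPM stood on 5.17 to 6.89 counts. Levels are CPM (counts scaled to a common library size) and pairs of means ± SD run from PBS to irisin (n = 3 each). LFC is the log2 fold change of irisin against PBS ± its standard error, and adjusted p is that of edgeR's quasi-likelihood test over all 12296 genes tested, with 0.05 as threshold. The standard error was derived from that test, as the size of the LFC divided by the square root of its F statistic. PBS replicate 3 and irisin replicate 1 stood apart from the other 4 libraries on the second principal component (23.9% of variance). The 8 stromal markers summed to 21342 to 23940 CPM in PBS and 28474 to 29305 CPM in irisin, with Pdgfra and Col1a1 higher and Lum and Thy1 lower. The neutrophil, lymphocyte, mesothelial and epithelial lists each stayed at or under 6.08 CPM in any library, with no gene abundant enough to test. The endothelial list stayed at or under 6.18 CPM, and the list of smooth muscle and pericyte markers was at 106 to 143 CPM in PBS and 98.3 to 137 CPM in irisin (1 of 4 tested lower). Adipocyte markers summed to 152 to 244 CPM in PBS and 40.5 to 50.6 CPM in irisin, 5 of 5 tested lower. Their part in the results below was not tested. In bulk RNA, fewer cells of a type and less RNA per cell cannot be told apart.

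Transcripts of these families changed in both directions after irisin, with rises and falls in each of the MMP, ADAMTS and TIMP groups. Mmp9, Mmp8, Adamts7, Adamts9 and Timp1 rose, and Mmp11, Mmp10, Mmp2, Adamts8, Adamts1, Timp3 and Timp2 fell. The fold changes ran from 7.54-fold higher (Mmp9) to 5.05-fold lower (Adamts8), both in genes of low level. Of the 51 genes, 34 passed the filter on low counts, and 5 of these rose, 7 fell and 22 did not pass. Over all tested genes 7.42% were called (4.20% higher and 3.22% lower), against 35.3% of these 34. Mmp9 passed the filter only through its irisin libraries and Adamts8 only through its PBS libraries, so their calls follow in part from the filter, and 10 of the 12 calls were made at a count minimum of 50, which left both untested. Groups did not overlap in 21 of the 34 (61.8%), 8 with irisin higher and 13 with irisin lower, against 23.6% of all tested genes. The median LFC was -0.22 over the 34 and -0.01 over all tested genes. Without the libraries that stood apart, PBS replicate 3 and irisin replicate 1, all 12 calls were kept and 10 more were made among 33 members tested (8 higher, 14 lower), against 13.5% called over all genes. Leaving out PBS replicate 3 alone gave 6 higher and 14 lower, where 10.2% of all tested genes were called, and scaling by total counts gave 5 higher and 12 lower, where 8.33% were called. Upward calls made up 29.4% of member calls under total counts and 41.7% under TMM scaling, and over all genes 41.2% and 56.6%, so this share moved in the same direction in both.

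**Figure D1:**
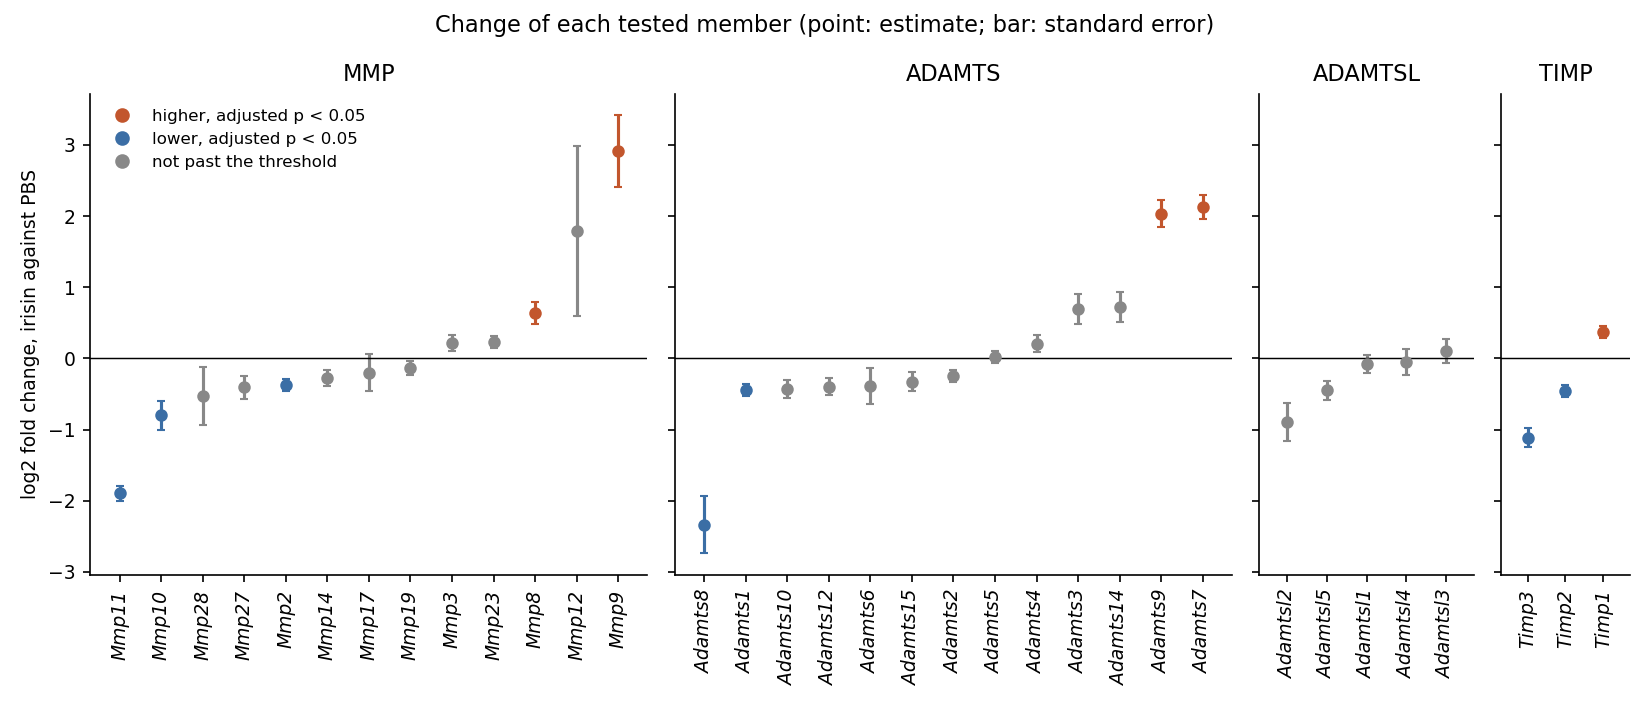
Log2 fold change of irisin against PBS for the 34 tested genes, by family, with points for edgeR's estimates and bars for standard errors. Colour marks the 5 genes called higher and the 7 called lower. Called genes lie on both sides of 0 in the MMP, ADAMTS and TIMP panels, and no ADAMTSL gene was called. Some uncalled genes lie farther from 0 than some called ones, such as Mmp12 compared with Mmp8.

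Stromelysins cut proteoglycans, fibronectin and other matrix proteins, and Mmp11 (stromelysin-3) is an unusual member that is activated inside the cell by furin and made mainly by stromal cells at sites of tissue remodelling. Mmp11 stood at 609, 502 and 494 CPM in PBS replicates 1 to 3 and at 151, 134 and 146 CPM in irisin. Each irisin library was far below the lowest PBS library. The fall was 3.73-fold, from 535 ± 63.9 to 144 ± 8.84 CPM (LFC -1.90 ± 0.10, adjusted p = 1.18e-07), and it passed under all 16 alternatives. Mmp10 (stromelysin-2), a gene of low level, read 14.4, 17.1 and 18.2 CPM in PBS and 11.4, 6.57 and 10.2 CPM in irisin. The groups did not overlap, but their nearest values were close. Mmp10 fell 1.74-fold (LFC -0.80 ± 0.21, adjusted p = 0.0347). It missed the threshold when PBS 1, PBS 2, irisin 2 or irisin 3 was left out (adjusted p 0.0511 to 0.139).

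Mmp3 (stromelysin-1), an activator of other MMP precursors, was the most abundant MMP and was not called. It read 672, 703 and 889 CPM in PBS and 944, 869 and 817 CPM in irisin, so that PBS replicate 3 lay within the irisin range. The LFC was 0.22 ± 0.11 (adjusted p = 0.329). Without PBS replicate 3 the LFC of Mmp3 was 0.35 and passed (adjusted p = 0.00473), and without both PBS replicate 3 and irisin replicate 1 it was 0.30 (adjusted p = 3.30e-05).

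The gelatinases, which cut denatured collagen and basement membrane collagen, went in opposite directions. Mmp2, the constitutive gelatinase of fibroblasts, read 652, 622 and 567 CPM in PBS and 452, 459 and 512 CPM in irisin. All irisin values were lower. The fall was 1.29-fold, from 614 ± 43.2 to 474 ± 32.6 CPM (LFC -0.37 ± 0.09, adjusted p = 0.0200). Mmp2 missed the threshold when PBS 1, PBS 2, irisin 1 or irisin 2 was left out (adjusted p 0.0758 to 0.129). Mmp9, the gelatinase that cytokines induce in many cells and that neutrophils store, had 1, 3 and 9 counts in PBS and 38, 29 and 30 in irisin. These are 0.145, 0.475 and 1.66 CPM against 6.08, 5.60 and 4.71 CPM, with the highest PBS value in replicate 3. Mmp9 was 7.54-fold higher (0.759 ± 0.795 to 5.47 ± 0.694 CPM, LFC 2.91 ± 0.50, adjusted p = 0.00238), and its call was kept in every fit that tested it. Mmp9 passed the filter only through its irisin libraries, so the call follows in part from the filter. The fits also reuse the same libraries and are not independent of each other. The size of the rise was uncertain too, since the LFC of Mmp9 ran from 2.38 to 4.09 over the 15 alternatives that tested it. This LFC was 4.09 without PBS replicate 3, 3.996 without both that library and irisin replicate 1, and 3.64 with limma-voom. Per length of exon, Mmp9 reached 1.54 CPM per kb in irisin, against 141 CPM per kb for Mmp2.

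Among the collagenases, which cut fibrillar collagen, only Mmp8 was abundant enough to test. Mmp8, named neutrophil collagenase for the cells in which it was first found, read 41.2, 37.1 and 57.3 CPM in PBS and 77.9, 67.4 and 64.6 CPM in irisin. All irisin values were higher, and PBS replicate 3 was the nearest to them. The rise was 1.55-fold, from 45.2 ± 10.7 to 70.0 ± 7.03 CPM (LFC 0.64 ± 0.15, adjusted p = 0.0234). Leaving out PBS 1, PBS 2, irisin 1 or irisin 2 ended this call (adjusted p 0.0719 to 0.114). None of the 6 neutrophil markers was abundant enough to test, and the list summed to 0.951 to 2.03 CPM in PBS and 1.74 to 2.88 CPM in irisin. S100a9 and Ly6g had no count in any library. Csf3r and Mpo were higher and Elane lower in each irisin library than in any PBS library, and S100a8 overlapped. These had 7 counts or fewer in any library. Mmp13, the main interstitial collagenase of rodents, had 7 counts over the PBS libraries and 16 over the irisin libraries. Mmp1a had 1 count in all and Mmp1b had 4.

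Membrane-type MMPs sit at the cell surface, where Mmp14 activates the Mmp2 precursor with the help of TIMP-2. Mmp14 read 145, 141 and 110 CPM in PBS and 108, 106 and 114 CPM in irisin, with PBS replicate 3 inside the irisin range (LFC -0.28 ± 0.11, adjusted p = 0.183). Without PBS replicate 3 it passed as lower (LFC -0.39, adjusted p = 0.00495). Mmp17 stayed near 4 to 5 CPM and was not called (LFC -0.20 ± 0.26, adjusted p = 0.792), and Mmp15, Mmp16, Mmp24 and Mmp25 were too low to test. Of the remaining MMPs, Mmp23, a membrane-anchored enzyme that lacks the haemopexin domain, was the most abundant. It read 270, 278 and 251 CPM in PBS and 301, 313 and 322 CPM in irisin, without overlap, and did not pass (LFC 0.23 ± 0.08, adjusted p = 0.127). Mmp19 (LFC -0.14 ± 0.10, adjusted p = 0.544) and Mmp27 (LFC -0.40 ± 0.16, adjusted p = 0.193) did not pass either. Mmp12, the elastase of macrophages, had 7, 0 and 13 counts in PBS and 20, 1 and 49 in irisin. The ranges of the groups overlapped widely, and the LFC of 1.80 ± 1.19 did not pass (adjusted p = 0.540). The macrophage list summed to 71.1 to 89.5 CPM in PBS and 71.9 to 93.6 CPM in irisin, mostly from Csf1r, with Ptprc, Adgre1, Mrc1, Itgam, Tyrobp and Fcer1g too low to test.

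**Figure D2:**
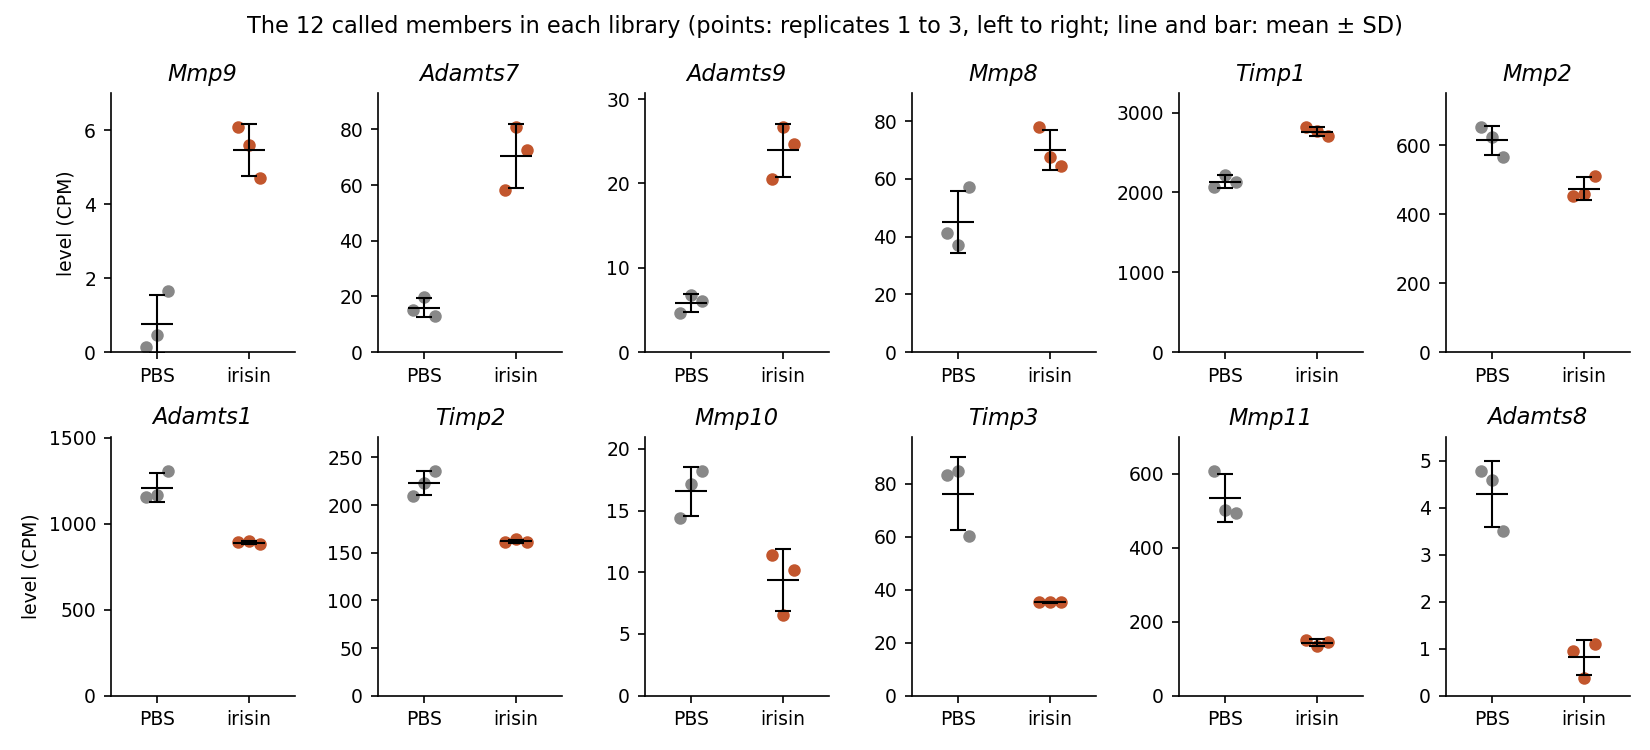
Levels in CPM of the 12 called genes in each of the 6 libraries, in order of their fold change, with points for replicates, lines and bars for mean ± SD, and axes that start at 0. In each panel the 3 irisin points lie wholly above or below the 3 PBS points, and PBS replicate 3 is the nearest to the irisin points for Mmp9, Mmp8, Timp3, Mmp2, Mmp11 and Adamts8.

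10 of the 23 MMP genes form a cluster on chromosome 9, from 7272514 to 7699585 in GRCm38 (427072 bases), with no other annotated protein-coding gene between them. Of these 10, 9 are annotated as protein-coding and Mmp1a as a polymorphic pseudogene. The cluster holds all collagenase genes together with Mmp3, Mmp10, Mmp12, Mmp27, Mmp20 and Mmp7. Its members differed widely in level and direction. Mmp3 was at 755 ± 117 CPM in PBS, while its neighbours on either side, Mmp1b and Mmp1a, had 2 and 0 counts over the PBS libraries. Mmp10 fell and the next gene, Mmp8, rose, with 48215 bases between them. Mmp27, 2910 bases beyond Mmp8, was at 26.4 ± 4.42 and 19.8 ± 2.46 CPM. Mmp20, an enzyme of tooth enamel, and Mmp7 (matrilysin), an enzyme of epithelia, had 1 count each in all libraries.

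Promoters of this cluster are textbook examples of binding sites for AP-1, the Fos and Jun transcription factors, and they are shown because the letters of that site were found in most of them and in none of the 26 other members whose window could be searched. The sequences are the 120 bases before the RefSeq start of each gene in GRCm38.p6, 5′ to 3′ on the gene's strand, in the order of the genes along the chromosome. Mmp12 and Mmp7 have 2 starts each, and the stretch shown is the one with the AP-1 letters, which the other window of each lacks. Capitals mark the AP-1 letters TGANTCA and, nearer to the start, the TATA box letters TATAAA.
Mmp13: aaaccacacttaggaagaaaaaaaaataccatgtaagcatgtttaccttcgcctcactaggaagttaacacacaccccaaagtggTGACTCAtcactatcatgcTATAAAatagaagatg
Mmp12: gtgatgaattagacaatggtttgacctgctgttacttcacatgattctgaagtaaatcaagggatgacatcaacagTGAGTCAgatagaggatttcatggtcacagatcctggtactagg
Mmp1b: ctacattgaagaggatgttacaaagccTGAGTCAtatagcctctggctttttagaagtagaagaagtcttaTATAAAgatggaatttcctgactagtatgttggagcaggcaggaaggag
Mmp3: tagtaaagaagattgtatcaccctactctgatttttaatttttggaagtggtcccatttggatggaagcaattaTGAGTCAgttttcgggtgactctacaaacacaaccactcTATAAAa
Mmp1a: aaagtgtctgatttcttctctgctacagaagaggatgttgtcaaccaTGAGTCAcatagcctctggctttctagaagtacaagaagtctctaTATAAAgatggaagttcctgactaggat
Mmp10: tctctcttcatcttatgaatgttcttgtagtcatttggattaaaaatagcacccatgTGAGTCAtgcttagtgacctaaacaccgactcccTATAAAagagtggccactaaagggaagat
Mmp8: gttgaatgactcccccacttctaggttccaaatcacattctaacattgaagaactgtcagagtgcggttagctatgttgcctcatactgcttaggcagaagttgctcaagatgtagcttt
Mmp27: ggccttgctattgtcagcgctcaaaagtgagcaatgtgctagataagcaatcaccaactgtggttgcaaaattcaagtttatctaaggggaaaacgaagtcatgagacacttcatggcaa
Mmp20: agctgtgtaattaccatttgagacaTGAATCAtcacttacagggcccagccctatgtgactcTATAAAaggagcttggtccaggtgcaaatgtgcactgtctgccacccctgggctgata
Mmp7: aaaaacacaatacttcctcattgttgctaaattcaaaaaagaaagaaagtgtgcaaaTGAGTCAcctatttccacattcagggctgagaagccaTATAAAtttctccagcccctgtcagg
They lie at chr9:7272394-7272513 (Mmp13), chr9:7347254-7347373 (Mmp12), chr9:7388027-7388146 (Mmp1b, minus strand), chr9:7445702-7445821 (Mmp3) and chr9:7464021-7464140 (Mmp1a). The others lie at chr9:7502222-7502341 (Mmp10), chr9:7558309-7558428 (Mmp8), chr9:7571276-7571395 (Mmp27), chr9:7628111-7628230 (Mmp20) and chr9:7691970-7692089 (Mmp7), and all but Mmp1b are on the plus strand. The last 21 bases of the Mmp1b stretch lie in an exon of the GENCODE annotation.

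The AP-1 letters, searched on both strands in the 250 bases before each start, were found for 8 of the 10 cluster genes, with the first base 35 (Mmp13) to 95 (Mmp20) bases before the start. They were found for 0 of the 26 other members with a window, and for 7.82% of all 27025 genes with one. In 7 of these 8 genes the TATA box letters were present as well, and Mmp12 had only the AP-1 letters. For NF-κB the letters were GGGA, any 4 bases, then CC, and 3 of the 36 genes matched (Adamts3, Adamts20 and Adamtsl5), none of them in the cluster, against 19.7% of all genes with a window. Among the 5 tested genes of the cluster, the AP-1 letters stood before Mmp10, which fell, and before Mmp3 and Mmp12, which were not called. Neither the AP-1 nor the TATA box letters were found before Mmp8, which rose, or Mmp27. Windows were at hand for 36 of the 51 genes, and Mmp2, Mmp9, Mmp16, Mmp17, Mmp19, Adamts4, Adamts5, Adamts6, Adamts7, Adamts8, Adamts10, Adamts15, Adamts16, Adamts19 and Adamtsl1 had none.

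**Figure D3:**
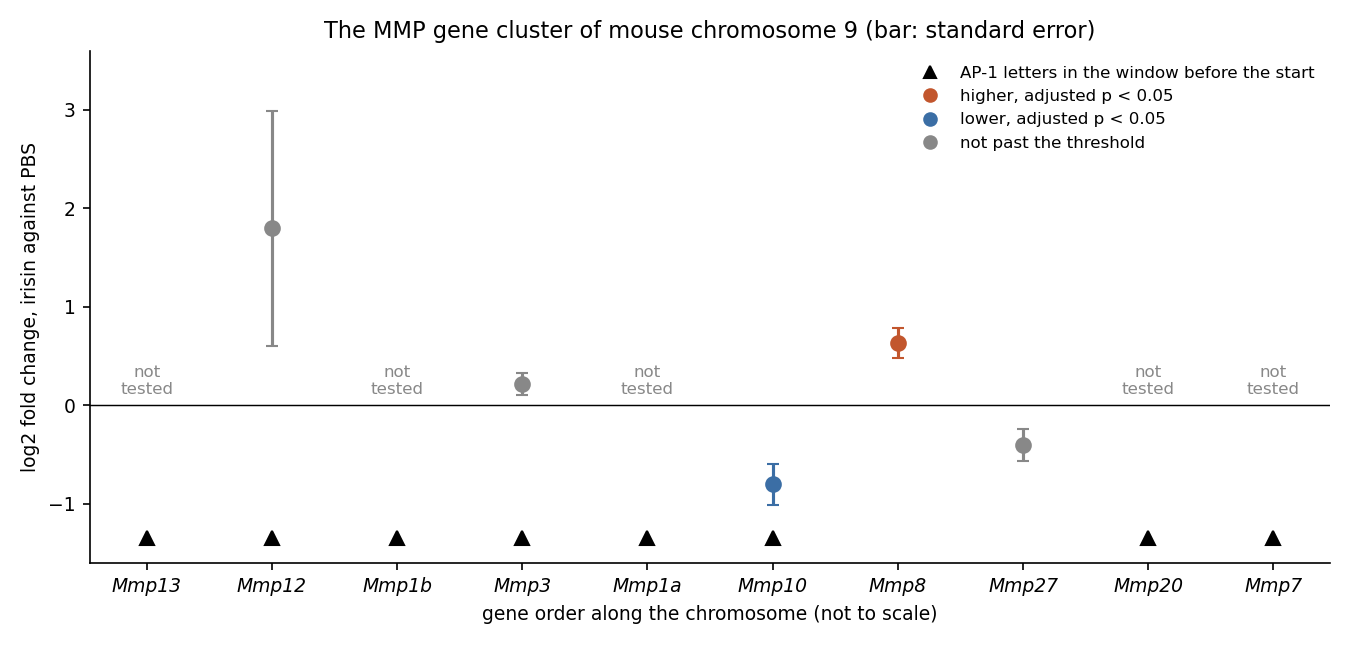
Log2 fold change (points, with standard errors as bars) of the 10 MMP genes of chromosome 9 in their order along the chromosome, which is not drawn to scale; 5 were too low to test. Triangles mark the 8 genes with AP-1 letters before the start, and the only rise called, Mmp8, is next to the only fall called, Mmp10.

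The ADAMTS proteoglycanases cut aggrecan, versican and related proteoglycans, and their most abundant members here were Adamts5 and Adamts1. Adamts1 read 1156, 1168 and 1309 CPM in PBS and 894, 898 and 881 CPM in irisin. The irisin libraries were closely alike and all lower. The fall was 1.36-fold, from 1211 ± 84.9 to 891 ± 8.81 CPM (LFC -0.44 ± 0.08, adjusted p = 0.00421), and it passed under all 16 alternatives. Adamts5, the main aggrecanase of mouse cartilage, read 1505, 1546 and 1386 CPM in PBS and 1399, 1508 and 1594 CPM in irisin. These ranges overlapped almost fully (LFC 0.02 ± 0.09, adjusted p = 0.944), and the sign turned with total counts (-0.058). Adamts1 and Adamts5 lie next to each other on chromosome 16, 53059 bases apart with no protein-coding gene between them. Adamts4, the other aggrecanase, was at 60.9 ± 2.67 and 70.4 ± 10.5 CPM and did not pass (LFC 0.21 ± 0.12, adjusted p = 0.413).

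Adamts9, which also works in the secretory pathway and in blood vessels, rose. It read 4.64, 6.81 and 6.08 CPM in PBS and 20.5, 26.7 and 24.7 CPM in irisin. Every irisin library held at least 3 times the highest PBS level. The rise was 4.10-fold (5.84 ± 1.10 to 23.9 ± 3.16 CPM, LFC 2.03 ± 0.19, adjusted p = 1.65e-05), and 1805 exon bases of Adamts9 are shared with genes on the opposite strand. Adamts8 had 33, 29 and 19 counts in PBS and 6, 2 and 7 in irisin, or 4.79, 4.60 and 3.50 CPM against 0.960, 0.387 and 1.10 CPM. It was 5.05-fold lower (LFC -2.34 ± 0.40, adjusted p = 0.00227) on these few counts. Its neighbour on chromosome 9, Adamts15, is 20109 bases away and much more abundant per length (36.9 CPM per kb in PBS). Adamts15 read 439, 399 and 309 CPM in PBS and 265, 317 and 333 CPM in irisin, with PBS replicate 3 within the irisin range (LFC -0.33 ± 0.13, adjusted p = 0.189). Without PBS replicate 3 it passed as lower (LFC -0.46, adjusted p = 0.00323).

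Adamts7 and Adamts12 cut COMP, the cartilage oligomeric matrix protein, and of this pair Adamts7 rose. Adamts7 read 15.1, 19.8 and 13.1 CPM in PBS and 58.2, 80.8 and 72.6 CPM in irisin. The lowest irisin library was well above the highest PBS library. The rise was 4.39-fold, from 16.0 ± 3.46 to 70.5 ± 11.4 CPM (LFC 2.13 ± 0.17, adjusted p = 3.26e-06), and it passed under all 16 alternatives. Adamts12 read 96.9, 93.5 and 83.0 CPM in PBS and 58.6, 78.3 and 71.0 CPM in irisin. All irisin values were lower, yet it did not pass (LFC -0.40 ± 0.12, adjusted p = 0.0652). Comp itself was too low to test, at 1.12 and 0.643 CPM.

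The procollagen N-proteinases Adamts2, Adamts3 and Adamts14 remove the amino-terminal propeptide of fibrillar procollagens. None was called, where 7.42% of all tested genes were. The groups of each did not overlap, as was so for 23.6% of all tested genes. Adamts2, by far the most abundant of them, was at 530.2 ± 23.8 CPM in PBS and 447 ± 9.16 CPM in irisin (LFC -0.25 ± 0.08, adjusted p = 0.0811). Adamts14 (7.75 ± 1.97 to 12.8 ± 1.02 CPM, LFC 0.72 ± 0.21, adjusted p = 0.0603) and Adamts3 (6.54 ± 0.786 to 10.7 ± 1.71 CPM, LFC 0.70 ± 0.21, adjusted p = 0.0719) had positive estimates. Adamts2 passed as lower without PBS replicate 3 (adjusted p = 0.0131), and Adamts14 passed as higher without PBS replicate 2 (adjusted p = 0.0361).

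Other ADAMTS genes were not called. Adamts10, which acts on fibrillin microfibrils, read 119, 107 and 90.2 CPM in PBS and 68.5, 88.7 and 78.4 CPM in irisin (LFC -0.43 ± 0.13, adjusted p = 0.0588). Adamts10 and Adamts12 each passed as lower without PBS replicate 3 (adjusted p = 0.00326 and 0.0131). Adamts6 was at 8.26 ± 1.48 and 6.22 ± 1.89 CPM (adjusted p = 0.505). Adamts13, Adamts16, Adamts17, Adamts18, Adamts19 and Adamts20 had 2 to 5 counts each over the 6 libraries.

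ADAMTSL proteins bind fibrillins and other matrix components, and 0 of their 5 genes were called, against 7.42% of all tested genes. With 5 genes, these shares cannot be told apart. Groups did not overlap in 2 of the 5, against 23.6% of all tested genes. Adamtsl1 (74.7 ± 8.34 to 70.8 ± 8.34 CPM), Adamtsl4 (31.8 ± 7.32 to 30.9 ± 5.82 CPM) and Adamtsl3 (21.0 ± 3.61 to 22.5 ± 3.40 CPM) had overlapping groups and LFC between -0.08 and 0.10. Adamtsl5 (39.7 ± 5.63 to 29.2 ± 1.99 CPM, LFC -0.45 ± 0.13, adjusted p = 0.0662) and Adamtsl2 (7.20 ± 2.03 to 3.88 ± 0.274 CPM, LFC -0.89 ± 0.27, adjusted p = 0.0679) did not overlap and stayed just outside the threshold. Both passed as lower without PBS replicate 3 (2 falls in this family), a fit in which 10.2% of all tested genes were called. The sign of Adamtsl1 turned without irisin replicate 1, that of Adamtsl3 without PBS replicate 1 or irisin replicate 1, and that of Adamtsl4 without PBS replicate 2 or irisin replicate 1.

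The 3 TIMP genes that could be tested were all called, 1 higher and 2 lower, against 7.42% of all tested genes (4.20% higher and 3.22% lower). A family of 3 tested genes is too small to read this share closely. Timp1, a soluble inhibitor that cytokines induce, read 2063, 2217 and 2129 CPM in PBS and 2816, 2764 and 2700.4 CPM in irisin. The groups were far apart relative to their spread. The rise was 1.29-fold, from 2136 ± 77.5 to 2760.1 ± 57.9 CPM (LFC 0.37 ± 0.08, adjusted p = 0.0111). Leaving out PBS 1, irisin 2 or irisin 3 ended this call (adjusted p 0.0528 to 0.0858).

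Timp2, the inhibitor that also takes part in activating the Mmp2 precursor, read 210.0, 223 and 236 CPM in PBS and 161, 164 and 161 CPM in irisin. All irisin libraries were lower. The fall was 1.38-fold (LFC -0.46 ± 0.08, adjusted p = 0.00317). Timp3, which binds to the matrix and also blocks Adamts4, Adamts5 and the sheddase Adam17, read 83.3, 84.9 and 60.4 CPM in PBS and 35.2, 35.4 and 35.2 CPM in irisin. PBS replicate 3 was the lowest of its group and still well above the highest irisin library. Timp3 fell 2.17-fold, from 76.2 ± 13.7 to 35.3 ± 0.0965 CPM (LFC -1.11 ± 0.14, adjusted p = 0.000138). It lies inside Syn3 and shares 1733 exon bases with that gene on the opposite strand. The strand setting of the counting is not known here. The calls of Timp2 and Timp3 passed under all 16 alternatives. Timp4, which adipocytes express, had 7 counts over the PBS libraries and 5 over the irisin libraries.

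Per length of exon, which allows genes to be compared with each other, Timp1 was the most abundant of the 51 genes. Its level was 2406 ± 87.2 CPM per kb in PBS and 3108 ± 65.2 CPM per kb in irisin. Timp1 made up 97.3% of the summed TIMP level per length in PBS and 98.5% in irisin. In PBS the next genes were Mmp3 (419 ± 65.1 CPM per kb), Adamts1 (228 ± 16.0), Mmp11 (193 ± 23.0), Mmp2 (182 ± 12.8), Adamts5 (137 ± 7.68) and Mmp23 (114 ± 5.98), of which Mmp11 and Mmp2 overlapped within their spread. In irisin the order after Mmp3 was Adamts1 (168 ± 1.66 CPM per kb), Mmp2 (141 ± 9.67), Adamts5 (139 ± 9.07), Mmp23 (133 ± 4.38) and Mmp11 (51.7 ± 3.18), of which Mmp2, Adamts5 and Mmp23 did not differ beyond their spread. Mmp11 went from rank 4 to rank 7 of the 51 genes and Adamts7 from rank 24 to rank 15.

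The makeup of the MMP transcripts differed between the groups. Mmp11 held 22.2%, 18.8% and 17.2% of the summed MMP level per length in PBS replicates 1 to 3 and 5.82%, 5.46% and 5.96% in irisin. Mmp3 held 37.8%, 40.6% and 47.6% in PBS and 56.1%, 54.7% and 51.4% in irisin. The groups were separate for both shares. Shares of the same sum depend on each other, so a lower Mmp11 level raises the Mmp3 share by itself. The level of Mmp3 overlapped between the groups (373, 391 and 494 CPM per kb in PBS, 524, 482 and 454 CPM per kb in irisin). Summed over 23 genes, the MMP level was 987, 963 and 1037 CPM per kb in PBS and 934, 882 and 882 CPM per kb in irisin. The summed TIMP level was 2387, 2565 and 2465 CPM per kb in PBS and 3217, 3159 and 3087 CPM per kb in irisin. The MMP sum over the TIMP sum was 0.413, 0.375 and 0.421 in PBS and 0.290, 0.279 and 0.286 in irisin, lower in each irisin library. These sums are descriptions without a test, they rest mainly on Mmp3, Mmp2, Mmp11, Mmp23 and Timp1, and transcript sums do not measure enzyme activity.

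**Figure D4:**
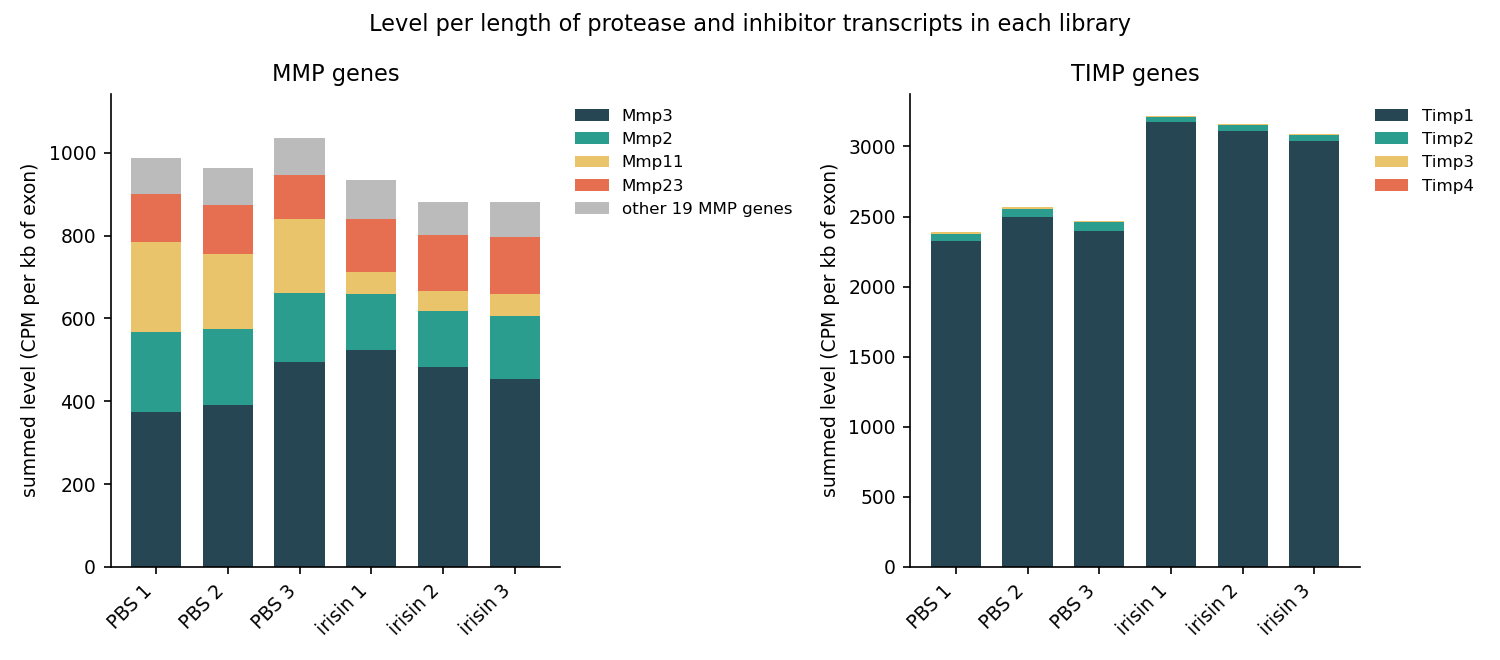
Summed level per length (CPM per kb of exon) of the MMP genes and of the TIMP genes in each library, stacked by gene on axes that start at 0. The Mmp11 part is smaller in all 3 irisin libraries (5.46% to 5.96% of the MMP sum) than in PBS (17.2% to 22.2%), and the TIMP bars, nearly all Timp1, are taller.

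Other genes of the same system were taken from 6 lists, chosen with earlier results of these data known. Over all tested genes 7.42% were called (4.20% higher and 3.22% lower). Of 17 tested activators, inhibitors and receptors of MMPs, 1 rose and 2 fell (17.6% called, median LFC -0.03). Plau, the urokinase whose product plasmin activates MMP precursors, fell from 127 ± 34.3 to 49.2 ± 5.46 CPM (LFC -1.37 ± 0.19, adjusted p = 0.00138). Serpine2, an inhibitor of urokinase and thrombin, fell from 446 ± 69.6 to 214 ± 15.8 CPM (LFC -1.06 ± 0.11, adjusted p = 3.76e-05). Bsg, the inducer of MMPs known as EMMPRIN, rose from 738 ± 46.7 to 993 ± 72.8 CPM (LFC 0.43 ± 0.09, adjusted p = 0.00811), a call lost without PBS replicate 1 or 2 (adjusted p = 0.0557 and 0.0513). Plat, the tissue plasminogen activator, did not pass (LFC 0.25 ± 0.09, adjusted p = 0.111). The list held 2 rises and 4 falls without PBS replicate 3, and 4 and 4 without both PBS replicate 3 and irisin replicate 1. Calls over all tested genes rose in these fits too, to 10.2% and 13.5%.

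The ADAM relatives, a family that includes membrane proteases that shed surface proteins, were called in 0 of 11 tested genes (median LFC 0.13), against 7.42% of all tested genes. None was called under any of the alternatives either. The lowest p in the list was that of Adam33 (10.8 ± 1.25 to 6.93 ± 2.25 CPM, LFC -0.65 ± 0.25, adjusted p = 0.165), whose groups did not overlap. The sheddases Adam10 (LFC 0.19 ± 0.09, adjusted p = 0.253) and Adam17 (LFC 0.14 ± 0.08, adjusted p = 0.394) did not pass either. Of 3 tested genes of astacin proteases and procollagen processing, Bmp1, which removes the carboxy-terminal propeptide of procollagen, rose from 303 ± 48.5 to 452 ± 58.6 CPM (LFC 0.57 ± 0.13, adjusted p = 0.0161). This call was lost without irisin replicate 2 or 3 (adjusted p = 0.0814 and 0.0806). Pcolce2, an enhancer of that step, fell from 481 ± 83.2 to 273 ± 19.3 CPM (LFC -0.82 ± 0.12, adjusted p = 0.000713). Pcolce itself was not called (LFC -0.26 ± 0.08, adjusted p = 0.0867). Of 9 cathepsins and other matrix proteases, only Htra3, a serine protease that binds TGF-β family members, was called. That is 11.1%, near the 7.42% of all tested genes. Htra3 fell from 254 ± 25.5 to 140.0 ± 2.20 CPM (LFC -0.86 ± 0.09, adjusted p = 4.42e-05). Leaving out PBS replicate 3 gave 2 falls in this list, and leaving out irisin replicate 1 as well gave 4. In these fits 10.2% and 13.5% of all tested genes were called. Cathepsin K (Ctsk), a collagen-cutting cathepsin, lay just outside (LFC -0.31 ± 0.09, adjusted p = 0.0528).

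Of 15 tested matrix substrates 2 rose and 2 fell (26.7% called, against 7.42% of all tested genes, median LFC 0.02). Eln, the gene of elastin, fell from 25.1 ± 6.93 to 9.53 ± 2.57 CPM (LFC -1.41 ± 0.25, adjusted p = 0.00333). Lum, the collagen-binding proteoglycan lumican, fell from 428 ± 72.4 to 253 ± 42.0 CPM (LFC -0.76 ± 0.14, adjusted p = 0.00659). Col1a1, a chain of type I collagen, rose from 8249 ± 1266 to 11586 ± 476 CPM (LFC 0.49 ± 0.11, adjusted p = 0.0154), and Tnc, the matrix glycoprotein tenascin C, from 664 ± 13.8 to 848 ± 93.7 CPM (LFC 0.35 ± 0.09, adjusted p = 0.0359). Both rises were lost without irisin replicate 2 or 3, and Tnc also without PBS replicate 1 or 2 (adjusted p 0.0725 to 0.213). The rises numbered 4 and the falls 3 without PBS replicate 3, and 6 and 5 without both PBS replicate 3 and irisin replicate 1. Over all tested genes 10.2% and 13.5% were called in these fits. Vcan, the versican cut by ADAMTS proteoglycanases, did not pass (LFC 0.21 ± 0.12, adjusted p = 0.390), and Acan, Bcan and Ncan were too low to test.

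Of 19 tested cytokines, receptors and transcription factors known to induce MMP or TIMP genes, 9 rose and 1 fell (median LFC 0.35). That is 52.6% called, against 7.42% of all tested genes. Besides Il6, which rose from 13.5 ± 2.85 to 53.3 ± 6.59 CPM, the rises included Il1r1, the interleukin-1 receptor (LFC 0.61 ± 0.09, adjusted p = 0.00102), and Osmr, the oncostatin M receptor (LFC 0.48 ± 0.09, adjusted p = 0.00421). Of the NF-κB subunits, Relb (LFC 1.31 ± 0.16, adjusted p = 0.000226), Nfkb2 (LFC 0.95 ± 0.11, adjusted p = 0.000121) and Nfkb1 (LFC 0.54 ± 0.13, adjusted p = 0.0234) rose, and Rela did not pass (LFC 0.17 ± 0.14, adjusted p = 0.643, groups overlapping). The transcription factor Runx1 rose (LFC 0.73 ± 0.11, adjusted p = 0.000683). The AP-1 genes went both ways, with Junb higher (LFC 0.52 ± 0.09, adjusted p = 0.00271), Fosl2 higher (LFC 0.35 ± 0.10, adjusted p = 0.0466), Fos lower (LFC -1.13 ± 0.29, adjusted p = 0.0398) and Jun and Fosl1 not called (adjusted p = 0.938 and 0.854). Leaving out PBS 1, PBS 2, irisin 1 or irisin 3 ended the Fos call (adjusted p 0.138 to 0.159). Leaving out PBS 1, PBS 2, irisin 2 or irisin 3 ended that of Nfkb1 (adjusted p 0.0508 to 0.146). The Fosl2 call was lost without any 1 of the 6 libraries (adjusted p 0.0546 to 0.189) and with DESeq2 (0.0735) or total counts (0.117).

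The 17 genes that were too low to test had at most 13 counts in any library, and 12 of them had fewer than 10 counts over all 6. Mmp16, the highest of them, had 13 counts over the PBS libraries and 29 over the irisin libraries. At this depth, differences among these genes were not detectable. Outside the chromosome 9 cluster, Mmp11 lies on chromosome 10 from 75923222 to 75936496, Mmp2 on chromosome 8 (92827291 to 92853420), Mmp9 on chromosome 2 (164940780 to 164955850) and Timp1 on chromosome X (20870166 to 20874735), in GRCm38 with GENCODE release M21. Timp3 lies on chromosome 10 (86300372 to 86349506), Timp2 on chromosome 11 (118301069 to 118355740), Adamts7 on chromosome 9 (90163069 to 90208071) and Adamts9 on chromosome 6 (92772699 to 92943492). All are annotated as protein-coding, and each count sums over a gene without telling exons, introns and untranslated regions apart. Besides Timp3 and Adamts9, exons on the opposite strand overlap Adamts8 (489 bases), Mmp11 (155) and Adamts7 (122) among the called genes.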

How the data were processed

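Polyadenylated RNA of 6 libraries was compared. The submitters' processing notes name STAR 2.7.3a, featureCounts and mm10. Annotation release, strand setting and the treatment of reads with several matches are not stated. The deposited values are raw whole-number counts for 55011 gene symbols. From these counts, edgeR 4.0.16 in R 4.3.3 computed TMM factors, kept 12296 genes with filterByExpr (count minimum 10) and compared irisin with PBS by the quasi-likelihood test (robust, no covariate), adjusted by Benjamini-Hochberg over all tested genes (threshold 0.05). For CPM, each library's size was its sum over tested genes times its TMM factor. Levels per kb used exon unions of GENCODE M21, which matched 51 of 51 symbols. Promoter windows came from RefSeq (GRCm38.p6).

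The genes, the lists and the alternatives were chosen with earlier results of these data known. Named with values are all TIMP genes, all called members, tested members averaging 10 CPM or more, and from other lists up to 4 tested genes of lowest p and any called in small numbers; further genes named were chosen after their values were seen. Alternatives were other scalings, DESeq2 1.42.0, limma-voom (limma 3.58.1), other filters, a replicate block and each library left out; the fit without both PBS replicate 3 and irisin replicate 1 was chosen after seeing the data. In counts simulated from the irisin and PBS libraries (12121 genes), edgeR recovered 46%, 76%, 94% and 96% of genes changed 1.5-fold, 2-fold, 4-fold and 8-fold. Of its 169 calls there, 13 were false. Chi-square per degree of freedom was 2.59 or more between libraries of a group, so no library repeated another.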

Additional observations from a re-analysis of the deposited data

How the results depend on the processing

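Of the 12 called members, Mmp11, Adamts1, Adamts7, Adamts9, Timp2 and Timp3 kept direction and call under all 16 alternatives, and Mmp2, Mmp8, Mmp10 and Timp1 did not. Mmp9 and Adamts8 kept theirs in 15, were untested at a count minimum of 50, and entered the test through 1 group only. Members higher numbered 3 to 6 and members lower 5 to 14 when 1 library was left out, against 5 and 7, and all genes called 589 to 1290, against 912. Members lower numbered 12 with total counts (1024 of all genes called), 14 with limma-voom (1271), 11 with no low-count filter (1153) and 12 at an adjusted p of 0.10 (1260), so calls over all genes rose in these fits too. Without both PBS replicate 3 and irisin replicate 1 there were 8 higher and 14 lower among 1680 genes called. The labels state no pairing of the libraries by replicate number. Correlations of deviations from the group means were -0.24, 0.16 and -0.18 for numbers 1 to 3. PBS replicate 3 correlated best with irisin replicate 1, at 0.36. With 3 libraries per group and 1 standing apart in each, these values cannot decide if the libraries are paired. With the replicate block, 4 members were higher, 5 lower and 691 genes called in all, and Mmp10, Mmp2 and Timp1 were not called (adjusted p 0.0647 to 0.0881). Signs turned only in members with no call: the LFC of Adamts5 was -0.058 with total counts and -0.024 (without irisin replicate 3; -0.020 without PBS replicate 3) to 0.069 when 1 library was left out. With 1 library left out, the LFC of Adamtsl1 ran from -0.16 to 0.015 (without irisin replicate 1) and that of Adamtsl3 from -0.021 (without PBS replicate 1; -0.0034 without irisin replicate 1) to 0.23. That of Adamtsl4 ran from -0.21 to 0.098 (without PBS replicate 2; 0.083 without irisin replicate 1). Apart from the fewer samples or genes that an alternative tests, the cause was not tested. Depth limits the 17 untested members, and Mmp9 and Adamts8 rest on few counts.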
